A study of Mus musculus with 12 samples.

Results

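The genes described here are 10 members of the MYC, MAX and MXD network in mouse: Myc, Mycn, Max, Mxd1, Mxd3, Mxd4, Mxi1, Mnt, Mga and Mlx. They were chosen by gene symbol, each through its probe set with the highest mean over the 12 arrays, and are 10 of the 18820 genes tested. Total RNA from primary cultures of B lymphoma cells of l-MYC;B1-8f mice (C57BL/6J x BALB/c) was hybridised to whole-transcript Affymetrix arrays (Mouse Gene 1.1 ST). The 4 groups were BCR-negative cells cultured with CHIR99021, BCR-positive cells cultured with CHIR99021, untreated BCR-negative cells and untreated BCR-positive cells, with 3 arrays each, 1 from each of the independent lymphomas 2564, 2646 and 2676. BCR stands for the B cell receptor, and CHIR99021 is an inhibitor of the kinase GSK3, for which the labels give no dose. All groups carried the MYC transgene and came from cultures transduced with TAT-Cre, a cell-permeable recombinase used to ablate the BCR. BCR-negative and BCR-positive cells grew together in 1 mixed culture for 4 days and were then separated by cell sorting, so BCR-positive cells had also met TAT-Cre. Each lymphoma is a tumour of its own, and animal age was not given in the sources used here.

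MYC and its relative MYCN are transcription factors that bind DNA as dimers with MAX, at E-box sequences, and mostly raise transcription of genes for growth and metabolism. MXD1, MXD3, MXD4, MXI1 and MNT compete for MAX and repress through SIN3 and histone deacetylases, MGA pairs with MAX in a Polycomb-type repressor complex, and MLX is a MAX-like protein that pairs with MXD1, MXD4, MNT and the glucose-sensing factors MLXIP and MLXIPL. In lymphoma, MYC is known as a driver of transformation, and GSK3 phosphorylates the MYC protein, which marks it for destruction through FBXW7. The arrays measured RNA, not protein.

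The promoter windows of Mxd4, Mlx and Mnt are shown because these were the members that passed the test in a comparison. Each runs 5′ to 3′ from 250 bases before to 50 bases after the gene's start in RefSeq's GRCm38.p6 table, in lower case, with the E-box CACGTG in capitals. The Mxd4 window is chr5:34187661-34187960 on the minus strand, the Mlx window is chr11:101087040-101087339 on the plus strand, and the Mnt window is chr11:74830674-74830973 on the plus strand.
Mxd4: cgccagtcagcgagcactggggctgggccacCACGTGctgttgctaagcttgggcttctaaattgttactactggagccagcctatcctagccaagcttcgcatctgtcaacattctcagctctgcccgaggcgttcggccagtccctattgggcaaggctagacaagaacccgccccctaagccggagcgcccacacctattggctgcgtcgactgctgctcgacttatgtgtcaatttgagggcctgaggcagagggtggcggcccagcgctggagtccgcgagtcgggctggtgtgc
Mlx: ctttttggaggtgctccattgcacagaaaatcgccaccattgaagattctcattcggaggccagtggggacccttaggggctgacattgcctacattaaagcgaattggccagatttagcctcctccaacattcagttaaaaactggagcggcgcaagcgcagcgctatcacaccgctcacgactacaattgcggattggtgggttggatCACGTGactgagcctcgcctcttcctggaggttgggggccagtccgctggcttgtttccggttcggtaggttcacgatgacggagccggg
Mnt: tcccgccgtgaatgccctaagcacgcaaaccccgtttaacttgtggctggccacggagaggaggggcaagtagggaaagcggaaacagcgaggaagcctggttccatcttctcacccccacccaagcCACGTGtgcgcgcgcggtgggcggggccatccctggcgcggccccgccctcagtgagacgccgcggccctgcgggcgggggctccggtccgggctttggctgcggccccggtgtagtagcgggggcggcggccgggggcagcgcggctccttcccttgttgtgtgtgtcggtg

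CACGTG reads the same on both strands. Its first base lay at position -219 in the Mxd4 window, -40 in the Mlx window and -123 in the Mnt window, counted from the gene's start. Of the 9 members with a window (Myc had none), 4 held the E-box: these 3 and Max, where it began at -3. Of all 27025 genes with windows, 8.09% held it. Those genes were not limited to the array's genes or matched for base content, and a difference in share was not tested. The FOXO motif GTAAACA, searched on both strands and not overlapping the E-box, was found in 1 member, in a window of Mxi1 at -231, and in 4.05% of all genes. These matches describe letters in the windows and no binding was measured.

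Markers were checked first. Of 10 B cell markers 9 were measured, with mean log2 values between 3.24 and 11.42, and 8 of the 9 lay above the 30th percentile of all genes (4.12). A heavy chain variable gene of the Ighv1 family, used as the check of BCR deletion, ranged between 6.56 and 9.12 on the 6 BCR-negative arrays, against 10 to 10.63 on the 6 BCR-positive arrays. In untreated cultures with BCR loss it fell by 2.11 ± 0.331 (log2 ± SE; limma, adjusted p = 0.0176, n = 3 lymphomas), and every BCR-negative array lay below every BCR-positive one. In CHIR99021 cultures its BCR-loss difference was -2.95. That had an adjusted p under 0.05 by limma as deposited, but not with array medians subtracted or after cyclic loess. With CHIR99021 in BCR-negative cells the gene differed by -0.95, which did not pass. Array medians lay between 4.71 and 4.92, and the precision of every value below is limited by the 3 lymphomas per group.

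Differences are given on the log2 scale of the deposited values, as the mean over the 3 lymphomas with the SE of the limma fit. A gene was called where its p, adjusted by Benjamini-Hochberg over 18820 genes, was under 0.05. With BCR loss in untreated cultures 2 of 10 members were called, Mxd4 higher and Mlx lower, against 4.2% of all genes (1.91% called higher and 2.3% called lower). With CHIR99021 in BCR-negative cells 3 of 10 were called, Mlx higher and Mxd4 and Mnt lower, against 3.68% of all genes (1.91% higher and 1.76% lower). With BCR loss in CHIR99021 cultures 0 of 10 were called, against 0.0159% of all genes, and with CHIR99021 in BCR-positive cells 0 of 10, against 0.0744%. Both backgrounds are near 0, so few genes of any kind passed there. For the interaction, the difference between the BCR-loss effects with and without CHIR99021, 0 of 10 members and 0% of all genes were called by limma.

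At an unadjusted p under 0.05, limma gave 5 of 10 members for BCR loss in untreated cultures (20.5% of all genes), 1 for BCR loss in CHIR99021 cultures (8.65%), 6 for CHIR99021 in BCR-negative cells (19%), 6 for CHIR99021 in BCR-positive cells (10%) and 2 for the interaction (5.26%). The sign was the same in all 3 lymphomas for many members. In untreated cultures with BCR loss, Mxd1, Mxd4, Mxi1, Mnt and Mga were positive in all 3 (5 of 10, against 18% of all genes; the Mxd1 difference in lymphoma 2564 rounds to 0), and Mlx was negative (1 of 10, against 21.8%). In CHIR99021 cultures with BCR loss, Mxd1, Mxd3 and Mxd4 were positive (3 of 10, against 17.8%) and Mlx was negative (1 of 10, against 13.9%). With CHIR99021 in BCR-negative cells Myc, Mxd1, Mxd4, Mxi1 and Mnt were negative (5 of 10, against 16%) and Mlx was positive (1 of 10, against 21.2%). With CHIR99021 in BCR-positive cells these 5 genes, Mycn and Mxd3 were negative (7 of 10, against 16.8%) and Mlx was positive (1 of 10, against 18.6%). Comparisons that share arrays are not independent: BCR loss in untreated cultures and CHIR99021 in BCR-negative cells share the untreated BCR-negative arrays, with opposite sign. The members were chosen with earlier results of these data known, and some moved together over the arrays. Their counts beside the shares of all genes, here and above, are therefore descriptions and not tests.

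The split of all calls moved with scaling: 45.4% of the genes called for BCR loss in untreated cultures were higher as deposited, 22.1% after each array's median was subtracted and 67.5% after cyclic loess, and for CHIR99021 in BCR-negative cells the shares were 52%, 76.8% and 35.9%.

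**Figure D1:**
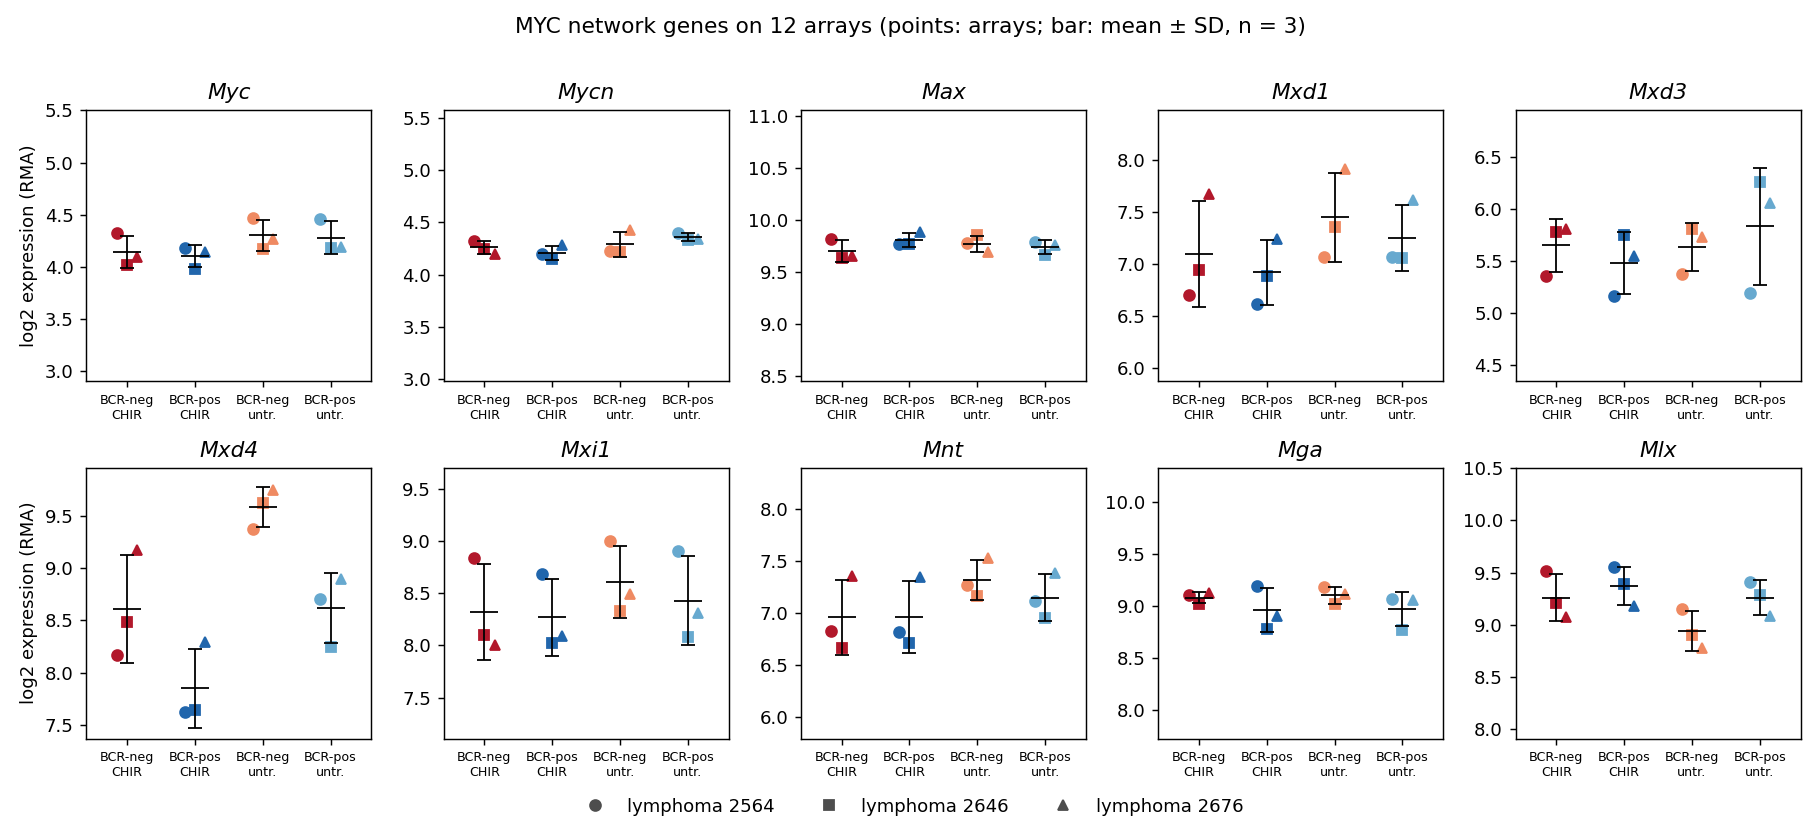
Log2 value of each of the 10 genes on every array, 1 panel per gene, with the 4 groups along the x axis, 1 marker shape per lymphoma and bars for mean ± SD (n = 3); every y axis spans the same height. Mxd4 was highest in untreated BCR-negative cells and lowest in BCR-positive cells with CHIR99021 in every lymphoma, Mlx ran the other way, and Max stayed between 9.63 and 9.88.

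Mxd4, which codes for a MAX partner known as a repressor in differentiating and resting cells, had the largest differences of the 10 genes in all comparisons but the interaction. In untreated cultures it read 9.38, 9.63 and 9.75 in BCR-negative cells of lymphomas 2564, 2646 and 2676, against 8.71, 8.25 and 8.9 in BCR-positive cells. All BCR-negative arrays lay above all BCR-positive arrays, as was so for 5.25% of all genes. The increase with BCR loss was 0.97 ± 0.157, or 1.96-fold (95% interval 0.62 to 1.32; limma, adjusted p = 0.0191). Within lymphomas it was 0.67, 1.38 and 0.86, so it was positive in 3 of 3. Because the RNA came from bulk sorted cells, fewer cells of a type and less RNA per cell cannot be told apart here or below.

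In cultures with CHIR99021, Mxd4 read 8.17, 8.49 and 9.18 in BCR-negative cells, against 7.62, 7.64 and 8.29 in BCR-positive cells, and the groups overlapped. The difference was 0.76 ± 0.157 (95% interval 0.41 to 1.12), positive in 3 of 3 lymphomas and not called (limma, adjusted p = 0.385). Only 3 genes were called in that comparison, and the BCR-loss effect on Mxd4 with CHIR99021 minus that without was -0.21 ± 0.222 (95% interval -0.7 to 0.29; limma, adjusted p = 0.984).

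The same 12 values give the response to CHIR99021. In BCR-negative cells Mxd4 fell by 0.98 ± 0.157 with CHIR99021, to 0.508 of the untreated level (limma, adjusted p = 0.015), and all 3 CHIR99021 arrays lay below all 3 untreated ones, as for 4.05% of all genes. The differences within lymphomas were -1.22, -1.14 and -0.57. In BCR-positive cells the difference was -0.77 ± 0.157 (95% interval -1.12 to -0.42), negative in 3 of 3 lymphomas but not called (limma, adjusted p = 0.114). Of 23 alternative settings, Mxd4 was called in BCR-positive cells in 1, when only their 6 arrays were fitted (limma, adjusted p = 0.0385). Fitting only the arrays compared ended its calls for BCR loss in untreated cultures (limma, adjusted p = 0.0807) and for CHIR99021 in BCR-negative cells (0.0731). Set beside untreated BCR-positive cells, BCR-negative cells with CHIR99021 differed in Mxd4 by -0.54, 0.24 and 0.29 in the 3 lymphomas, which spans 0 and was not tested.

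Mlx, the MAX-like partner, moved against Mxd4. In untreated cultures it read 9.15, 8.9 and 8.78 in BCR-negative cells of the 3 lymphomas, against 9.41, 9.28 and 9.08 in BCR-positive cells. The groups overlapped across lymphomas, but within each lymphoma the BCR-negative value was the lower. Mlx fell with BCR loss by 0.32 ± 0.0511, to 0.801 of the BCR-positive level (95% interval -0.43 to -0.21; limma, adjusted p = 0.0189). With CHIR99021 it read 9.51, 9.21 and 9.07 in BCR-negative cells, against 9.55, 9.39 and 9.18 in BCR-positive cells.

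With CHIR99021, Mlx rose in BCR-negative cells by 0.32 ± 0.0511, or 1.25-fold (limma, adjusted p = 0.0143), with 0.36, 0.32 and 0.29 in the 3 lymphomas. In BCR-positive cells the difference was 0.11 ± 0.0511, positive in 3 of 3 lymphomas and not called (limma, adjusted p = 0.5). With CHIR99021 present, BCR-negative cells differed from BCR-positive cells by -0.11 ± 0.0511 (limma, adjusted p = 0.592). The effect of BCR loss with CHIR99021 minus that without was 0.21 ± 0.0723 (95% interval 0.05 to 0.37), with 0.23, 0.21 and 0.19 in the lymphomas. That interaction had an unadjusted p of 0.016 and missed the threshold over all genes (limma, adjusted p = 0.928). BCR-negative cells with CHIR99021 differed from untreated BCR-positive cells by 0.1, -0.07 and -0.01.

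Mnt, a widely expressed MAX and MLX partner that opposes MYC, was called once. In BCR-negative cells it read 6.83, 6.67 and 7.36 with CHIR99021, against 7.27, 7.16 and 7.53 untreated. The arrays of the groups overlapped, since lymphoma 2676 was high in both. Within lymphomas the differences were -0.44, -0.48 and -0.17, and Mnt fell by 0.37 ± 0.0724, to 0.776 of the untreated level (limma, adjusted p = 0.0295). In BCR-positive cells it read 6.82, 6.71 and 7.35 with CHIR99021, against 7.12, 6.95 and 7.39 untreated, a difference of -0.19 ± 0.0724 (limma, adjusted p = 0.39). The BCR-loss difference of Mnt was 0.17 ± 0.0724 in untreated cultures (limma, adjusted p = 0.225) and 0 in CHIR99021 cultures (limma, adjusted p = 0.993).

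With lymphoma as a random instead of a fixed block all 5 calls ended: limma's adjusted p was 0.0634 for Mxd4 and 0.105 for Mlx with BCR loss in untreated cultures, and 0.0595, 0.109 and 0.201 for Mxd4, Mlx and Mnt with CHIR99021 in BCR-negative cells. The calls also rest on few samples. For BCR loss in untreated cultures, both calls ended without lymphoma 2646 (adjusted p = 0.286 for Mxd4 and 0.282 for Mlx) or 2676 (0.109 and 0.141), without the untreated BCR-negative array of 2646 (0.0762 and 0.0793), and without the untreated BCR-positive array of 2646 (0.0972 and 0.103) or 2676 (0.0888 and 0.0842); all these p are limma's. For CHIR99021 in BCR-negative cells, all 3 calls ended without lymphoma 2564 (limma, adjusted p = 0.0566 for Mxd4, 0.0889 for Mlx and 0.158 for Mnt) or 2646 (0.18, 0.18 and 0.315), and also without 1 array: untreated BCR-negative of 2646 (0.0625, 0.0628 and 0.123), BCR-negative with CHIR99021 of 2564 (0.0797, 0.0861 and 0.153) or of 2646 (0.0681, 0.0549 and 0.125). Mlx was also lost without lymphoma 2676 (0.0862), and Mnt without the untreated BCR-negative array of 2564 (0.0641) and after array medians were subtracted (0.0559).

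**Figure D2:**
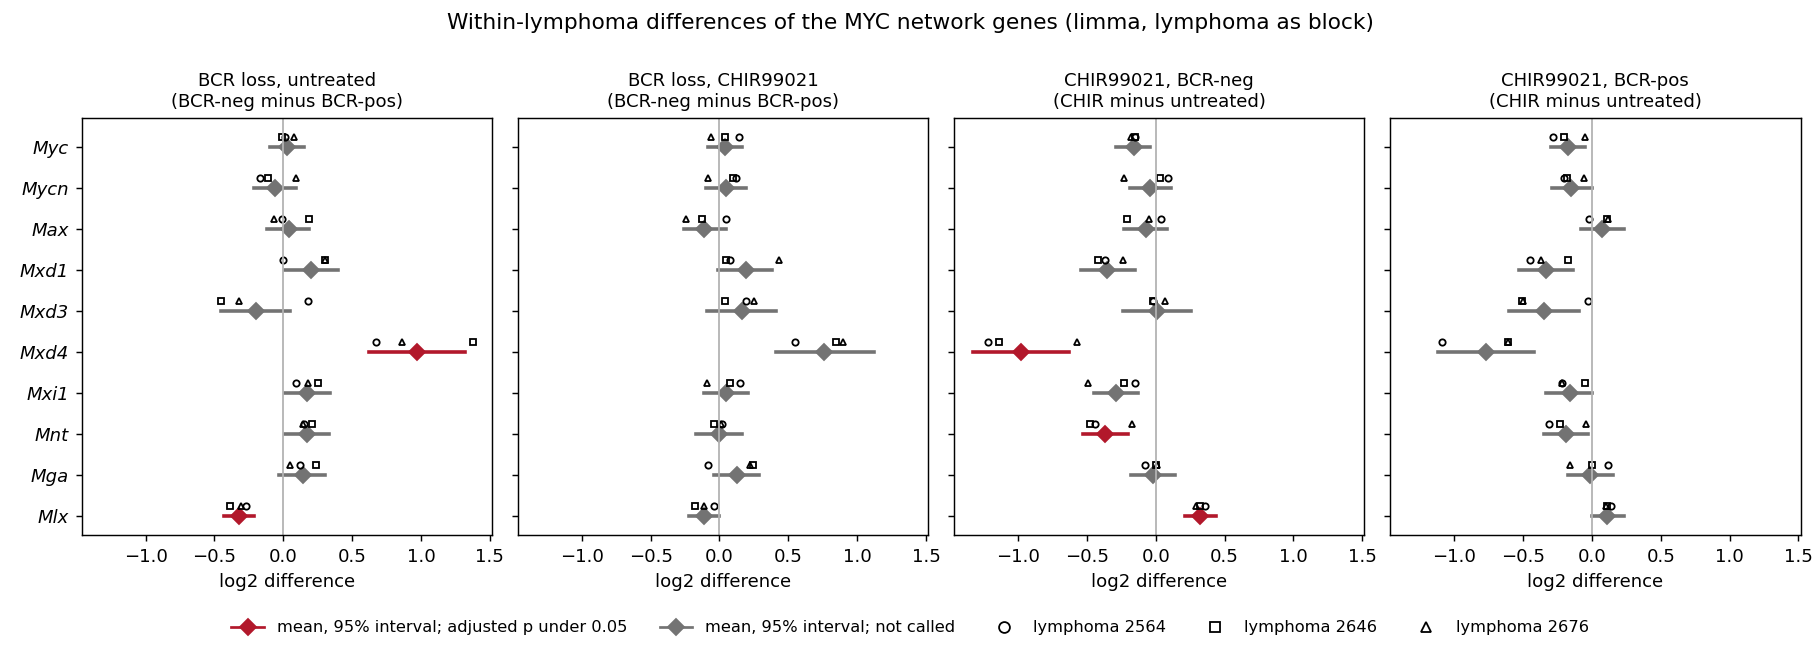
Log2 difference with its 95% interval for the 10 genes in the 4 comparisons between groups, BCR loss as BCR-negative minus BCR-positive and CHIR99021 as treated minus untreated; red was called, grey was not, and small open markers are the 3 lymphomas. Mxd4 lies near 0.97 for BCR loss in untreated cultures and near -0.98 for CHIR99021 in BCR-negative cells.

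Mxd1 and Mxi1 code for further MAX-binding repressors. Mxd1 ranged from 6.62 to 7.91 over the 12 arrays and Mxi1 from 8 to 9. With CHIR99021 in BCR-negative cells the differences were -0.35 ± 0.0874 for Mxd1 (limma, adjusted p = 0.0607) and -0.29 ± 0.0723 for Mxi1 (adjusted p = 0.0583), negative in 3 of 3 lymphomas for both and not called. Of 23 alternative settings each, Mxi1 was called in 1, cyclic loess (limma, adjusted p = 0.0394), and Mxd1 in 2, without the BCR-negative CHIR99021 array of lymphoma 2676 (adjusted p = 0.0317) and without the untreated BCR-positive array of 2564. In BCR-positive cells they were -0.33 ± 0.0874 and -0.16 ± 0.0723 (limma, adjusted p = 0.215 and 0.487). For BCR loss in untreated cultures Mxd1 differed by 0.2 ± 0.0874 and Mxi1 by 0.17 ± 0.0723 (limma, adjusted p = 0.231 and 0.208), and neither was called in CHIR99021 cultures.

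The probe set of the mouse gene Myc ranged from 3.98 to 4.47 over the 12 arrays, with a mean of 4.21 near the 30th percentile of all genes. The array's probes are designed for mouse genes, and whether the transgene's transcript adds to this signal was not tested. The values below are therefore not a measure of the MYC transgene. In untreated cultures Myc read 4.47, 4.17 and 4.27 in BCR-negative cells of the 3 lymphomas, against 4.46, 4.18 and 4.19 in BCR-positive cells, a difference of 0.03 ± 0.0551 (95% interval -0.1 to 0.15; limma, adjusted p = 0.864). With CHIR99021 the difference between BCR-negative and BCR-positive cells was 0.04 ± 0.0551 (limma, adjusted p = 0.88). CHIR99021 differences were -0.16 ± 0.0551 in BCR-negative cells (limma, adjusted p = 0.139) and -0.17 ± 0.0551 in BCR-positive cells (adjusted p = 0.293), negative in 3 of 3 lymphomas in both and not called. Both signs for BCR loss turned when array medians were subtracted.

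Mycn, the MYC relative of early B cells and neural tissue, ranged from 4.15 to 4.43, and Max, the shared partner, from 9.63 to 9.88. Neither was called anywhere. Mycn differed by -0.15 ± 0.0662 with CHIR99021 in BCR-positive cells (limma, adjusted p = 0.504), where its arrays did not overlap, as was so for 3.75% of all genes in that direction. Max differences lay between -0.11 and 0.07 over the 4 comparisons between groups.

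Mxd3, an MXD member linked to proliferation, ranged from 5.16 to 6.26, and Mga from 8.77 to 9.19. The Mxd3 difference for BCR loss in untreated cultures was -0.2 ± 0.112 (limma, adjusted p = 0.378), with 0.18, -0.45 and -0.32 in the lymphomas, so lymphoma 2564 had the opposite sign. It was called without lymphoma 2564 (-0.39) or without that lymphoma's untreated BCR-positive array (-0.37), with 0.0394 as limma's smaller adjusted p. With CHIR99021 in BCR-positive cells it was -0.35 ± 0.112 (limma, adjusted p = 0.311). Mga differed by 0.14 ± 0.0724 with BCR loss in untreated cultures (limma, adjusted p = 0.338) and by 0.13 ± 0.0724 in CHIR99021 cultures (adjusted p = 0.642).

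The lymphoma accounted for 83.3% of the sum of squares of Mxi1 and 72.6% of that of Mxd3, whereas the groups accounted for 80.2% for Mxd4 and 51.3% for Mlx. The median difference of the 10 members was 0.09 for BCR loss in untreated cultures and -0.12 for CHIR99021 in BCR-negative cells, against 0 and 0.01 over all genes. With array medians subtracted these medians were 0.03 and -0.06, against -0.06 and 0.07 over all genes, and after cyclic loess 0.16 and -0.14.

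Genes were ranked by Pearson's r with each member over the 12 arrays, after each lymphoma's mean was subtracted. Closest to Mxd4 were Foxp1 (r = 0.988), Smarca4 (r = 0.986) and Ypel3 (r = 0.985), and closest to Mlx were Naa20 (r = 0.987), Mtfp1 (r = 0.984) and Mettl16 (r = 0.98). Closest to Mnt were Ubald1 (r = 0.988), Otud5 (r = 0.966) and A430078G23Rik (r = 0.966). Between members, r was -0.96 for Mxd4 with Mlx, 0.916 for Mxd4 with Mxd1 and 0.838 for Mxd4 with Mnt. These values are descriptions, since the points share lymphomas and cultures. The closest genes were also picked as the highest r among all genes.

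**Figure D3:**
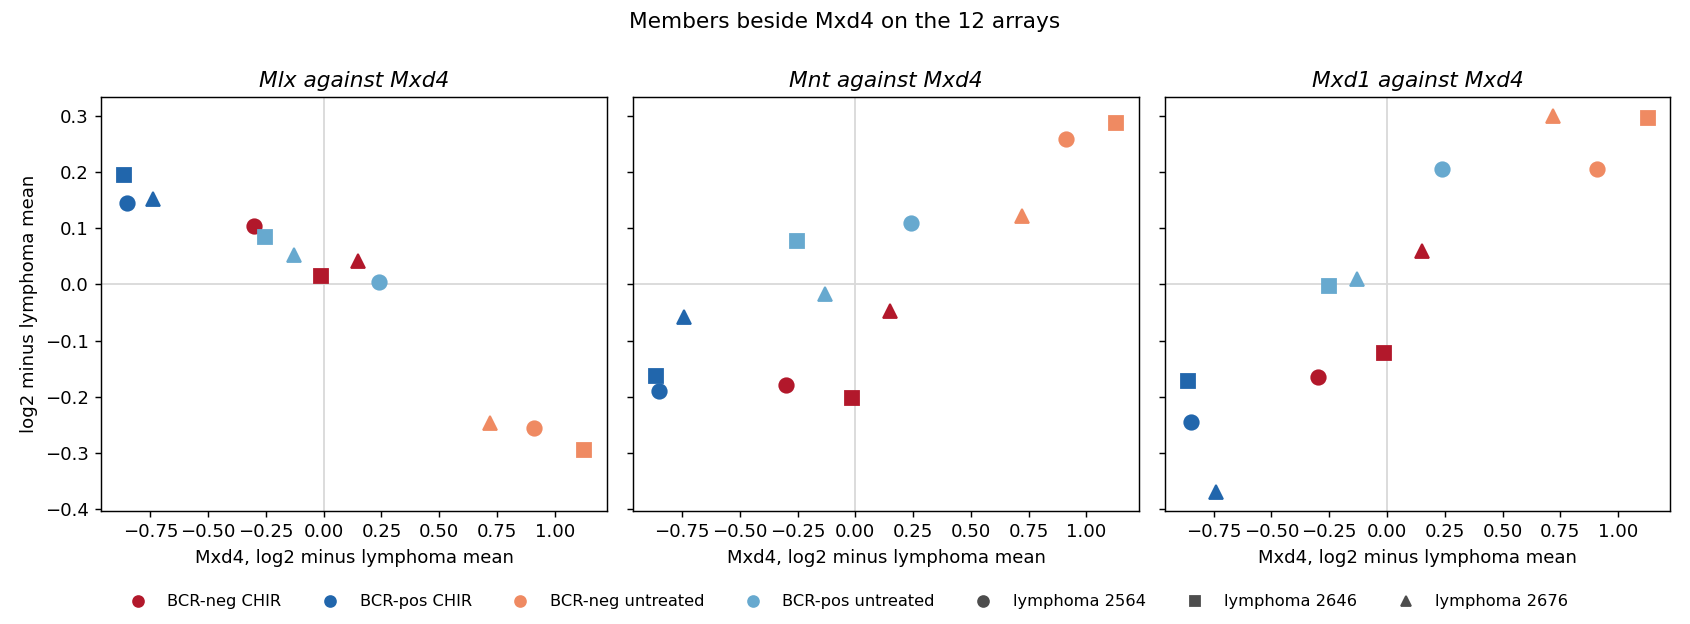
Log2 values of Mlx, Mnt and Mxd1 (y axes) against those of Mxd4 (x axis) on the 12 arrays, each with its lymphoma's mean subtracted; colours give the group and marker shapes the lymphoma. Mlx runs down as Mxd4 runs up (r = -0.96), Mnt (r = 0.838) and Mxd1 (r = 0.916) run up with it, and untreated BCR-negative cells lie at the high-Mxd4 end.

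Genes around the network were taken from 4 further lists. Of the other partners that bind E-boxes or network proteins, 8 of 8 were measured and 0 were called on the deposited values in any comparison. Of all genes, 4.2% were called for BCR loss in untreated cultures and 0.0159% in CHIR99021 cultures. For CHIR99021, 3.68% were called in BCR-negative cells and 0.0744% in BCR-positive cells, and for the interaction 0%. Mlxip, the glucose-sensing partner of MLX, differed by 0.33 ± 0.0808 with BCR loss in untreated cultures (limma, adjusted p = 0.0508) and by -0.32 ± 0.0808 with CHIR99021 in BCR-negative cells (adjusted p = 0.0596). Usf1, an E-box factor outside the network, differed by 0.36 ± 0.0929 and -0.36 ± 0.0929 in the same comparisons (limma, adjusted p = 0.0593 and 0.062). After cyclic loess, Mlxip and Usf1 were both called by limma in the 2 comparisons, higher with BCR loss and lower with CHIR99021. Over all 18820 genes, cyclic loess gave 448 higher with BCR loss and 415 lower with CHIR99021, against 359 and 332 as deposited.

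Of 18 cofactors of MYC and MXD proteins 15 were measured. With BCR loss in untreated cultures 3 fell: Sap30, a SIN3 complex subunit, by 0.51 ± 0.0852, Hdac1, a histone deacetylase, by 0.25 ± 0.0559, and Ruvbl1, a chromatin remodelling ATPase, by 0.43 ± 0.101 (limma, adjusted p = 0.0209, 0.0414 and 0.0487), 3 of 15 against 4.2% of all genes. Of these, 1 was called after cyclic loess, Sap30, and all 3 and Hdac2 after array medians were subtracted. All genes called lower numbered 432 as deposited, 216 after cyclic loess and 1013 with medians subtracted. With CHIR99021 in BCR-negative cells 1 rose, Hdac2, by 0.27 ± 0.0485 (limma, adjusted p = 0.0223), 1 of 15 against 3.68% of all genes, and 3 were called with medians subtracted. All genes called higher there numbered 360 as deposited and 836 with medians subtracted. The list's medians were -0.1 and 0.02, against 0 and 0.01 over all genes. They became -0.03 and -0.03 after cyclic loess, and -0.16 and 0.08 with medians subtracted.

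Of 15 genes for MYC protein turnover 12 were measured. Skp2, a ubiquitin ligase subunit that acts on MYC, fell with BCR loss in untreated cultures by 0.32 ± 0.0701 (limma, adjusted p = 0.039) and rose with CHIR99021 in BCR-negative cells by 0.4 ± 0.0701 (adjusted p = 0.0199). That was 1 of 12 in each comparison, against 4.2% and 3.68% of all genes. The call for BCR loss ended after cyclic loess, and with array medians subtracted Aurka, a mitotic kinase, was called beside Skp2 in both comparisons. With medians subtracted, 1013 of 18820 genes were called lower with BCR loss and 836 higher with CHIR99021. As deposited these counts were 432 and 360. Gsk3b, the kinase inhibited by CHIR99021, was not called in any comparison; with BCR loss in CHIR99021 cultures it differed by 0.12 ± 0.0527 (limma, adjusted p = 0.567).

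All 21 classical MYC target genes were measured. With BCR loss in untreated cultures 2 fell, Dnph1, a nucleotide hydrolase, by 0.44 ± 0.0739 and Hspd1, a mitochondrial chaperone, by 0.29 ± 0.0641 (limma, adjusted p = 0.0209 and 0.0408), 2 of 21 against 4.2% of all genes. Array medians subtracted gave 7 lower and cyclic loess 1, Dnph1. Over all 18820 genes, 1013 were called lower with medians subtracted and 216 after cyclic loess, against 432 as deposited. The list's median was -0.18, against 0 over all genes, and 20 of 21 differences were negative, against 51% of all genes. With CHIR99021 in BCR-negative cells 1 rose, Hspd1, by 0.3 ± 0.0641 (limma, adjusted p = 0.0384), 1 of 21 against 3.68% of all genes, with 3 after medians were subtracted and 1 after cyclic loess. All genes called higher in that comparison numbered 836 with medians subtracted and 232 after cyclic loess, against 360 as deposited. The list's median there was 0.14 and 20 of 21 were positive, against 54.2% of all genes. Medians kept their sign after array medians were subtracted (-0.24 and 0.2) and after cyclic loess (-0.11 and 0.08). In CHIR99021 cultures the BCR-loss median was -0.08, and 21 of 21 differences were negative, against 47.7% of all genes. There 0 of 21 were called, against 0.0159% of all genes. With CHIR99021 in BCR-positive cells the median was 0.07, and 19 of 21 were positive, against 51.2% of all genes. Of these 21, 0 were called, against 0.0744% of all genes.

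**Figure D4:**
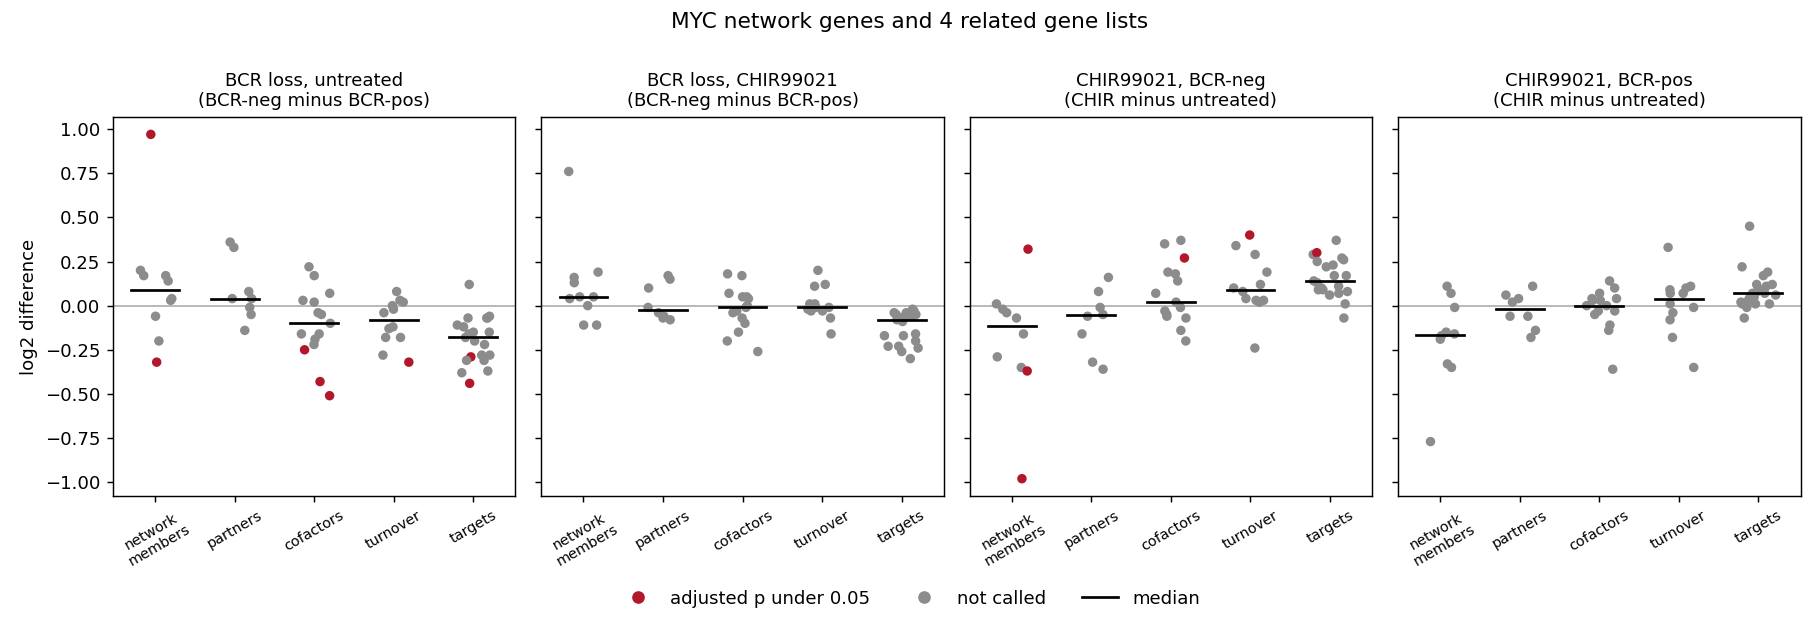
Log2 difference of each of the network members and of the genes in the 4 related lists, in the 4 comparisons between groups, with called genes in red and the list's median as a bar; horizontal scatter within a list has no meaning. The 21 MYC targets centre at -0.18 for BCR loss in untreated cultures and at 0.14 for CHIR99021 in BCR-negative cells.

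With CHIR99021, 1 of 9 B cell markers measured was called in BCR-negative cells, against 3.68% of all genes. In BCR-positive cells 0 of 9 were called, against 0.0744%. The differences of all 9 were negative in BCR-negative cells (median -0.34; 45.8% of all genes negative) and in BCR-positive cells (median -0.23; 48.8% of all genes negative). Cd79b, a BCR signalling subunit, was the one called: in BCR-negative cells it fell by 0.33 ± 0.0604 (limma, adjusted p = 0.024), a call that ended with array medians subtracted. Their summed log2 values ranged from 79.08 to 85.43 in BCR-negative cells with CHIR99021 and 78.12 to 85.98 in BCR-positive cells with CHIR99021, against 86.07 to 86.64 in untreated BCR-negative cells and 83.58 to 86.82 in untreated BCR-positive cells. Of 6 T cell markers 2 lay above the 30th percentile, and summed log2 values lay between 24.48 and 25.25 over the groups. In any comparison 0 of these 6 were called, against at most 4.2% of all genes. The summed values of 6 myeloid markers ranged from 25.89 to 29.96 in BCR-negative cells with CHIR99021, against 25.62 to 30.34 in untreated BCR-negative cells. Of these 6 the differences were positive for 2 and negative for 4, with a median of -0.02. Lyz2 was the 1 of 6 called, against 3.68% of all genes, and rose by 0.46 ± 0.1 (limma, adjusted p = 0.0388).

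In untreated cultures with BCR loss, 1 of 3 plasma cell markers was called, against 4.2% of all genes. It was Prdm1, a plasma cell regulator, which rose by 1.62 ± 0.293 (limma, adjusted p = 0.0248), with 0.57, 2 and 2.3 in the lymphomas. The other plasma cell markers, Sdc1 and Xbp1, differed by 0.35 and -0.12 and were not called. Of the B cell markers 6 of 9 were positive and 3 negative, against 49% of all genes positive. Of these 9, 1 was called, against 4.2% of all genes. It was Blnk, a BCR adaptor, which rose by 0.63 ± 0.0962 (limma, adjusted p = 0.017). The part of these markers in the results for Mxd4, Mlx and Mnt was not tested.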

How the data were processed

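The authors deposited log2 expression values of 35556 probe sets. Per the submitters' processing notes, RMA and Affymetrix Power Tools were used, with no version or genome build named. RMA is known to understate changes of dim probe sets, which include those of Myc and Mycn. The platform annotation gave 1 symbol to 21218 probe sets, and several to 1881, and 12457 were not listed and stayed unnamed; genes with several probe sets were taken through the one with the highest mean, which gave 18820 genes. No column was left unmapped.

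limma 3.58.1 in R 4.3.3 was run on these values with group and lymphoma as fixed terms (6 residual degrees of freedom), eBayes and Benjamini-Hochberg over all genes. BCR loss was compared within a culture and CHIR99021 between cultures. The fit gave both the same spread for a gene, so the SE does not separate these levels. The script was tested on simulated data. The lymphoma pairs the arrays: same-lymphoma arrays deviated together from their group means (r 0.813 to 0.907 over 18 pairs), and the labels name each number as a lymphoma. No 2 arrays were identical. Named genes were the 10 members, 1 heavy chain variable gene, list members called in a comparison or otherwise the 2 with the smallest p, the 3 genes most like each member, and markers that were called; Aurka, Sdc1 and Xbp1 were added after their values were seen. Members and lists were chosen with earlier results of these data known. Sequences came from RefSeq GRCm38.p6, with 9 of 10 members matched. Alternatives were the block, scaling, dim-gene filter, probe set mean, eBayes options, arrays fitted and leaving out lymphomas or arrays. Figures used matplotlib 3.10.9.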

Additional observations from a re-analysis of the deposited data

How the results depend on the processing

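The lymphoma block pairs the arrays. With no replicate block, 0 members were called in any comparison: limma's adjusted p was 0.476 for Mxd4 and 0.78 for Mlx with BCR loss in untreated cultures, and 0.567, 0.883 and 0.982 for Mxd4, Mlx and Mnt with CHIR99021 in BCR-negative cells. A random replicate block, or only the arrays of the groups compared, also left 0 called in these comparisons, and the second called 1, Mxd4, with CHIR99021 in BCR-positive cells. With a block for each culture, Mxd4 and Mlx stayed called for BCR loss in untreated cultures (limma, adjusted p = 0.0152 and 0.0354). That block cannot give the CHIR99021 differences, which lie between cultures. Leaving out lymphomas or single arrays, members called ranged from 0 to 3 for BCR loss in untreated cultures and from 0 to 4 for CHIR99021 in BCR-negative cells. BCR loss in CHIR99021 cultures and the interaction had 0 in every setting. Signs were kept in all settings for 37 of 50 member results, and in all 5 called ones. After array medians were subtracted, signs turned for Myc (-0.03 and -0.01) and Max (-0.02) with BCR loss, Mycn with BCR loss in CHIR99021 cultures (0), Mycn (0.02) and Mga (0.04) with CHIR99021 in BCR-negative cells, Mga in BCR-positive cells (0.03), and Mxd1 and Mga in the interaction (0). Leaving out lymphomas or arrays turned the sign, within these ranges, for BCR loss in untreated cultures of Myc (-0.01 to 0.05) and Max (-0.04 to 0.09); for BCR loss in CHIR99021 cultures of Myc (-0.01 to 0.09), Mxi1 (-0.01 to 0.14) and Mnt (-0.07 to 0.05); for CHIR99021 in BCR-negative cells of Mycn (-0.1 to 0.06), Mxd3 (-0.05 to 0.09) and Mga (-0.07 to 0.04); for Mga in BCR-positive cells (-0.1 to 0.06); and for the interaction of Myc (-0.05 to 0.09), Mxd1 (-0.11 to 0.11) and Mga (-0.1 to 0.09). Genes called overall for BCR loss in untreated cultures numbered 791, and 5 with no block, 75 with a random block, 1301 with medians subtracted and 0 with only the arrays compared; for CHIR99021 in BCR-negative cells 692, and 3, 81, 1089 and 29; for CHIR99021 in BCR-positive cells 14, and 0, 1, 2 and 109, and there 9 with cyclic loess, 23 without dim genes and 33 with trend and robust eBayes; the 0 for only the arrays compared stood beside 3527 genes at an unadjusted p under 0.05 by limma. For BCR loss in CHIR99021 cultures 3 were called, and 0 to 4 over the alternatives. Leaving out lymphomas or arrays gave 0 to 1204, 0 to 840 and 0 to 38 genes in the first 3 of these comparisons, and 0 to 2 for the interaction. The cause was not tested. Signal near background limits Myc and Mycn.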

Other observations

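Mxi1 had a second probe set, at a mean log2 value of 5.55 on its own scale. Its difference for BCR loss in untreated cultures was 0.08, and with CHIR99021 it was -0.08 in BCR-negative cells and -0.16 in BCR-positive cells. Closest to Mxd1 over the 12 arrays with lymphoma means subtracted were Ccng2 (r = 0.975), Paip2 (r = 0.974) and Pink1 (r = 0.971), and closest to Myc were Pex11g (r = 0.952), Mapkap1 (r = 0.945) and Zfp874a (r = 0.94). These r were picked as the highest among all genes and were not tested, and the Myc signal lay near background.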
